A study of Mus musculus with 10 samples.

Results

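Mesenchymal stem cells grown from mouse fat (adipose-derived stem cells, ASC) that had been primed toward bone and had lost Rb1 and Trp53 were compared with wild-type ASC across the autosomal genes. Of 22596 genes tested over the 10 arrays and 5 groups of the series, 21503 had their probe on 1 of the 19 autosomes (mouse build mm9), and the comparison covered all of these. Each group held 2 arrays, 1 for each of 2 independent cultures harvested in exponential growth. Null ASC were FVB cells with loxP-flanked alleles of both Rb and p53, kept for 10 days in osteogenic medium and then infected with an adenovirus carrying the Cre recombinase under the CMV promoter. Their source labels instead name mice null for both genes. Wild-type ASC were FVB cells without the flanked alleles, and the sources used here do not say whether they saw osteogenic medium or virus. Both groups were afterwards kept in general stem cell medium, were used between passages 2 and 5 and were labelled non-tumorigenic. The number of animals or clones behind a culture is not given either. Null and wild-type cultures also lay in different lines of the array slide, so that gene loss, virus, priming and slide position cannot be told apart.

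The retinoblastoma protein Rb holds E2F transcription factors inactive until cyclin-dependent kinases phosphorylate it, and E2F then drives genes for DNA replication and cell division. The p53 protein, encoded by Trp53, is stabilised by stress and activates genes for cell cycle arrest, repair and death, among them the kinase inhibitor Cdkn1a and its own ubiquitin ligase Mdm2. ASC are stromal cells of fat tissue that can form fat, bone and cartilage cells in culture, and loss of both genes is a known route to sarcoma.

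A level below is the log2 signal of a gene's probe minus the 75th percentile of its array, given for both arrays of a group. A change is null ASC minus wild-type ASC on the log2 scale, with the SE from limma, and rose and fell are used only where the adjusted p was under 0.05. Genes well above background on neither array of a group have only a bound, given as at least N-fold from the lowest signal that counted as detected. On the 10 arrays 53.3% to 58.4% of spots were well above background, none was saturated, and the 75th percentile lay between 483 and 621 scanner units. All 10 fixed markers of mesenchymal stem cells, among them Thy1, Eng, Cd44 and Pdgfra, were well above background on all 4 ASC arrays. Of 6 endothelial markers 4 were above background in both groups, while Cdh5 and Tek were not on any of the 4 arrays. The red cell gene Hba-a1, the muscle genes Myod1 and Ckm and the fat cell hormone Adipoq were not either. Other markers of blood, muscle and fat cells were well above background on all 4 arrays, among them Cd3e (T cells), Acta1 (muscle) and Pparg, Fabp4 and Lpl (fat cells). So were 3 of 4 Schwann cell markers. Of the 7 bone cell markers, 3 were above background on both null ASC arrays and 5 on both wild-type ASC arrays. The bone regulator Sp7 was not well above background in null ASC and stood low in wild-type ASC, at -4.64 and -4.63. Its change was not called (-0.85 ± 0.38, adjusted p = 0.124). The Sp7 fall was called with only the 4 ASC arrays (adjusted p = 0.0312) and in the values normalized by the authors (-0.73, adjusted p = 0.00548). With normexp background correction it was called as well (-0.33, adjusted p = 0.0371). The bone matrix genes Ibsp and Dmp1 were well above background in neither group. Counts in gene lists below cover the autosomal members that passed the filter on low signal. They are to be read against all 21503 autosomal genes, of which 20.3% rose and 21.4% fell.

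The targeted genes were both low in null ASC. Rb1 stood at -1.91 and -1.97 in null ASC, against 1.31 and 1.31 in wild-type ASC, a change of -3.25 ± 0.05 (adjusted p = 1.71e-06). Trp53 stood at -4.49 and -5.12 in null ASC, where 1 of 2 arrays was well above background, against 1.11 and 1.02 in wild-type ASC, a change of -5.87 ± 0.20 (adjusted p = 8.70e-06). The groups did not overlap for either gene, and the signal left in null ASC, relative to wild-type ASC, was 10.5% for Rb1 and 1.71% for Trp53. In the bone marrow cultures of the series Rb1 changed by -1.31 and Trp53 by -1.77. The Trp53 probe, at chr11:69404204-69404263 (mm9, plus strand), is printed because it reads a targeted gene. Its place relative to the flanked exons was not determined here, so its loss of signal does not by itself show the deletion.
Trp53 probe: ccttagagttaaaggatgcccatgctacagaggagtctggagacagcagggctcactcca

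Expression differed widely between the groups. Of 21503 autosomal genes, 8954 passed (41.6%), with 4360 higher (20.3%) and 4594 lower (21.4%) in null ASC. A change of at least 2-fold was found for 1969 genes (9.16%), of which 1067 were higher (4.96%) and 902 lower (4.19%). By a threshold of 8-fold, 74 were higher and 54 lower. The median change was -0.03 and the median SE 0.0939. Both arrays of a group lay above both of the other for 15057 genes (70%), so that an absence of overlap is common here and is given below as a description. Across genes the group means correlated at r = 0.983, against 0.994 and 0.995 between duplicates. The p-values measure only the spread between duplicate cultures.

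The autosomes had similar median changes. The median change ran from -0.11 on chromosome 12, where 14.5% of genes rose and 25.4% fell, to 0.03 on chromosome 19, where 25.6% rose and 17.6% fell. Chromosomes 11 and 14, which carry Trp53 and Rb1, had medians of -0.04 and -0.07. Both were below the median of all autosomal genes by less than 0.1 on the log2 scale.

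**Figure D1:**
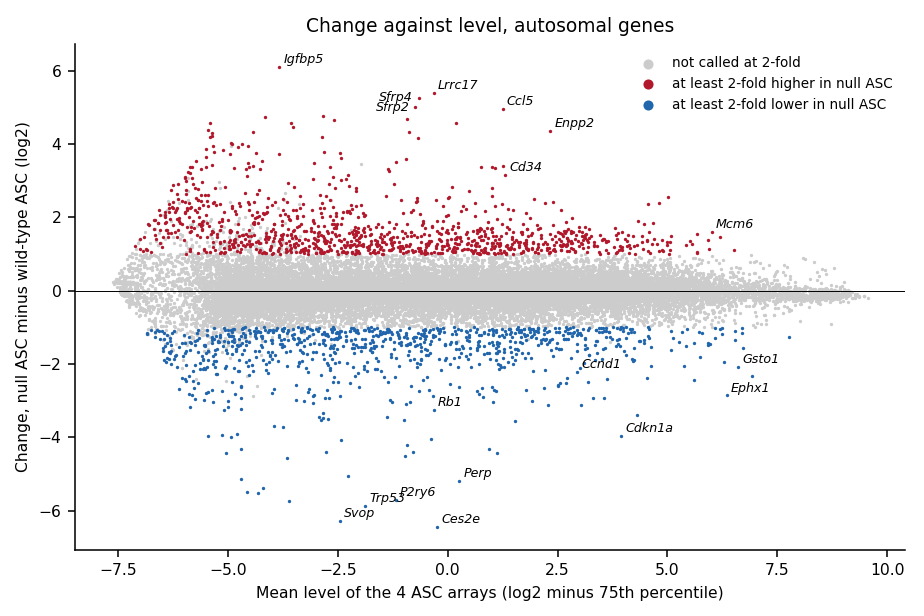
Change in null ASC minus wild-type ASC (log2) against the mean level of the 4 ASC arrays (log2 minus the 75th percentile), 1 point per autosomal gene. Red points (1067) were called at least 2-fold higher and blue points (902) at least 2-fold lower; named genes run from Igfbp5 at the top to Ces2e at the bottom, and points at low levels can rest on signals below background.

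Among genes detected on at least 1 array of each group, the largest increases were led by secreted proteins. Lrrc17, a leucine-rich repeat protein that inhibits osteoclast formation, stood at 2.33 and 2.44 in null ASC, against -2.83 and -3.19 in wild-type ASC (5.39 ± 0.13, adjusted p = 3.70e-06). The Wnt antagonist Sfrp4 stood at 1.85 and 2.11 in null ASC and at -3.42 and -3.16 in wild-type ASC (5.27 ± 0.13), and its relative Sfrp2 at 1.49 and 2.03 in null ASC and at -3.01 and -3.47 in wild-type ASC (5.00 ± 0.21). For each of the 3 genes both null arrays lay more than 4 log2 units above both wild-type arrays. Ccl5, a chemokine that attracts T cells and monocytes, stood at 3.78 and 3.68 in null ASC, against -1.18 and -1.26 in wild-type ASC (4.95 ± 0.09). Enpp2, the secreted enzyme autotaxin that makes lysophosphatidic acid, reached 4.42 and 4.60 in null ASC, the highest level among the 15 largest increases, against 0.09 and 0.24 in wild-type ASC (4.34 ± 0.09). Aspn, the matrix proteoglycan asporin that binds TGF-beta, stood at 1.24 and 1.33 in null ASC and at -3.04 and -3.03 in wild-type ASC (4.32 ± 0.07). None of these groups overlapped.

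Further large increases were Arg1 (4.69 ± 0.21), the arginine-degrading enzyme arginase, Atp1b2 (4.65 ± 0.31), a subunit of the sodium pump, Prune2 (3.61 ± 0.06), and Syt1 (3.77 ± 0.55), a calcium sensor of vesicle release. Vgll2, a cofactor of TEAD transcription factors, rose by 4.75 and the Wnt agonist Rspo2 by 4.20, each with only 1 of 2 wild-type arrays well above background. Fndc1 rose by 4.17 on the probe used, while the lowest of its 4 probes gave -0.98. The membrane protein Bves rose by 3.79 in fat cells and changed by -2.41 in marrow cells.

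Among genes detected in the same way, the largest decreases held many enzymes that process foreign compounds. Ces2e, a carboxylesterase, stood at -3.08 and -3.83 in null ASC, against 2.97 and 3.01 in wild-type ASC (-6.44 ± 0.62, adjusted p = 0.000334). Gsta3, a glutathione transferase, changed by -4.31 ± 0.17, the cytochrome Cyp2f2 by -4.08 ± 0.11, and Ces2c by -3.53 ± 0.20 on its brighter probe, although another probe of Ces2c gave 1.03.

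Signalling and p53-regulated genes were also among them. P2ry6, a receptor for uridine diphosphate, stood at -4.01 and -4.06 in null ASC, against 1.70 and 1.63 in wild-type ASC (-5.70 ± 0.08, adjusted p = 1.71e-06). Perp, a p53 target of cell junctions, stood at -2.31 and -2.34 in null ASC, against 2.85 and 2.86 in wild-type ASC (-5.18 ± 0.05, adjusted p = 2.87e-07). Cdkn1a, which encodes the kinase inhibitor p21, stood at 2.06 and 1.87 in null ASC, against 5.95 and 5.93 in wild-type ASC (-3.97 ± 0.08, adjusted p = 2.77e-06). In each case the duplicates lay within 0.2 log2 units of each other and the groups far apart. Anxa8, a membrane-binding annexin, fell by 4.42, the imprinted transporter Slc22a18 by 4.04 and the arginine synthesis enzyme Ass1 by 3.57. Hoatz changed by -4.50 ± 0.08, the RNA-binding protein Celf5 by -4.20 ± 0.15 and the guidance receptor Robo3, with 1 null array above background, by -4.40 ± 0.35.

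**Figure D2:**
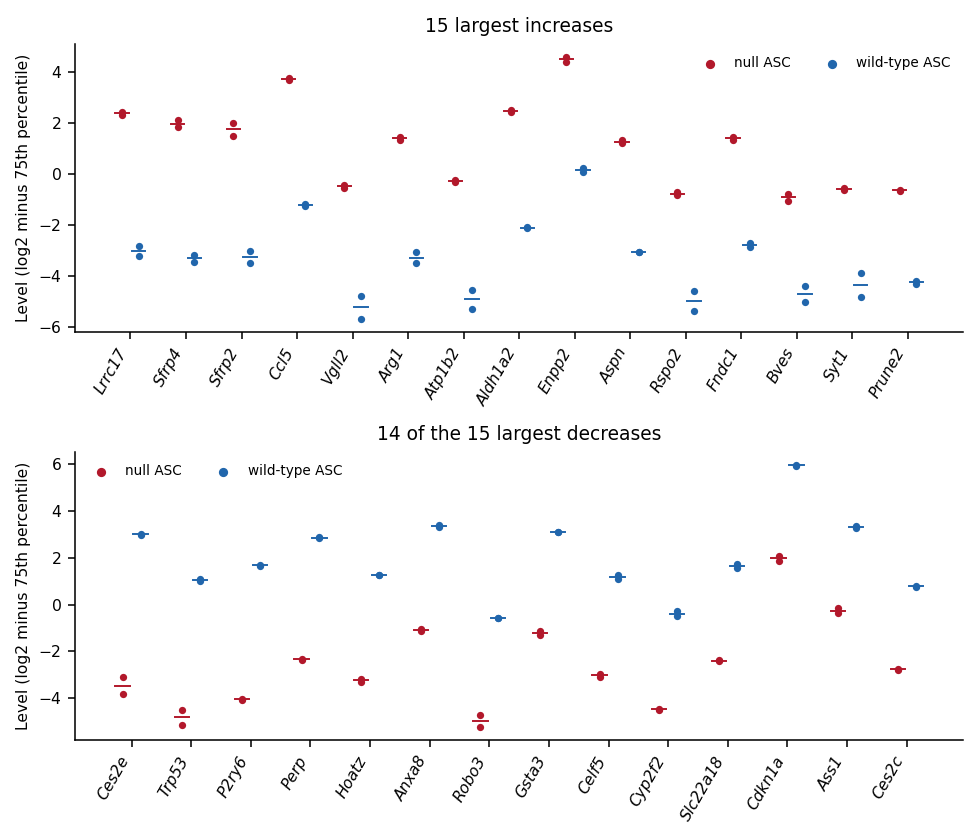
Level (log2 minus the 75th percentile) of the 15 largest increases (upper panel) and 14 of the 15 largest decreases (lower panel) among genes detected on at least 1 array of each group; points are arrays, null ASC in red on the left of each gene and wild-type ASC in blue on the right, and lines are means of 2. The groups are apart for every gene, which the choice of genes required.

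Of the 1969 genes called at 2-fold, 1463 were well above background on all 4 ASC arrays, 340 in null or wild-type ASC alone and 77 in neither group, while the rest had a mix of arrays above and below it in a group. By bounds, the insulin-like growth factor binding protein Igfbp5 was higher in null ASC by at least 27.4-fold, with a mean level of -0.77 in null ASC and -6.88 in wild-type ASC (adjusted p = 3.99e-05). Rgs7bp, a membrane anchor of regulators of G protein signalling, was at least 19.3-fold higher, the matrix protein Spon1 15.8-fold, the relaxin receptor Rxfp1 13.6-fold, Fbxl13 10.3-fold, the noradrenaline transporter Slc6a2 9.75-fold, the nucleotide-sugar receptor P2ry14 8.5-fold and Lrtm1 8.31-fold. In the other direction the vesicle protein Svop was at least 57.8-fold lower in null ASC, with means of -5.59 in null ASC and 0.69 in wild-type ASC (adjusted p = 9.27e-05). The phenol sulfotransferase Sult1a1 was at least 23-fold lower, involucrin (Ivl) 12.9-fold, Inka2 10.8-fold, the peroxisomal oxidase Acox2 10.3-fold, the keratin Krt20 8.88-fold and the chitinase-like protein Chil1 8.77-fold. All 15 had an adjusted p of 0.00582 or less.

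Among the partners of Rb, the E2F family was raised in part. Of 17 measured genes for pocket proteins, E2F and DP factors and the DREAM complex, 12 rose and 1 fell, against 20.3% and 21.4% of all autosomal genes, with a median change of 0.65. E2f8, a repressor that is itself an E2F target, stood at 1.00 and 1.08 in null ASC, against -0.96 and -1.07 in wild-type ASC (2.05 ± 0.07, adjusted p = 8.03e-06). The pocket protein Rbl1 (p107) stood at 1.63 and 1.71 in null ASC, against 0.26 and 0.50 in wild-type ASC (1.29 ± 0.10). For both, each null array lay above each wild-type array. The mitotic transcription factors Mybl2 (1.62 ± 0.07) and Foxm1 (1.61 ± 0.06) and the activator E2f2 (1.35 ± 0.11) rose as well. E2f7 rose by 1.45 on the probe used and changed by -0.06 on its other probe. The other pocket protein, Rbl2 (p130), stood lower at -0.79 and -0.91 in null ASC, against -0.44 and -0.11 in wild-type ASC (-0.58 ± 0.11), a call lost with only the 4 ASC arrays (adjusted p = 0.0643), and E2f3 (0.06) and E2f6 (-0.10) were not called.

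Mitotic cyclins rose and D cyclins fell. The mitotic cyclin Ccnb2 stood at 5.40 and 5.37 in null ASC, against 3.75 and 3.83 in wild-type ASC (1.60 ± 0.07), and cyclin A (Ccna2) at 3.86 and 3.82 in null ASC, against 2.36 and 2.35 in wild-type ASC (1.49 ± 0.06). The phosphatases Cdc25c (1.53 ± 0.11) and Cdc25b (1.34 ± 0.06), which activate cyclin-dependent kinases, also rose. The D cyclins, which activate the kinases that phosphorylate Rb, fell: Ccnd1 stood at 1.89 and 1.80 in null ASC, against 4.03 and 4.08 in wild-type ASC (-2.21 ± 0.07), and Ccnd2 at 4.67 and 4.64 in null ASC, against 6.14 and 6.22 in wild-type ASC (-1.52 ± 0.06). Their kinase partners Cdk4 (-0.02) and Cdk6 (0.03) were not called. In all, 12 of 20 cyclins, kinases and CDC25 phosphatases rose and 4 fell, with a median of 0.63.

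Of 8 inhibitors of these kinases, 5 rose and 2 fell. Cdkn2d (0.84 ± 0.05), Cdkn2c (0.67 ± 0.05) and Cdkn1b (0.52 ± 0.05) rose by less than 2-fold, while Cdkn3, a phosphatase of these kinases, rose by more (1.48 ± 0.12). Cdkn2b fell by 0.54. Cdkn2a, which encodes p16 and p19Arf, stood at 5.10 and 5.11 in null ASC and at 4.79 and 4.59 in wild-type ASC and was not called (0.42 ± 0.15, adjusted p = 0.0679), but it passed with normexp background correction (0.42, adjusted p = 0.0131) and 3 other settings.

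The DNA replication machinery rose almost as a whole. Of 49 genes for origin licensing and the replisome, all of them measured, 45 rose and none fell, 32 by at least 2-fold, and the median change was 1.20. Among them Mcm6, a subunit of the replicative helicase, stood at 6.81 and 6.81 in null ASC, against 5.14 and 5.28 in wild-type ASC (1.60 ± 0.06, adjusted p = 1.40e-05). Prim1, the primase that starts each DNA strand, stood at 3.84 and 3.85 in null ASC, against 2.13 and 2.12 in wild-type ASC (1.72 ± 0.04, adjusted p = 3.95e-06). The groups overlapped for neither gene, and the 2 arrays of a group lay within 0.2 log2 units. The checkpoint adaptor Clspn (1.94 ± 0.16), the helicase Recql4 (1.88 ± 0.10), the helicase-complex subunit Gins1 (1.68 ± 0.05) and the loading factor Mcm10 (1.61 ± 0.06) rose by similar amounts. The 4 that were not called were Prim2, Gins3 (0.07), Orc4 (-0.04) and Orc5 (0.03), the last pair being origin recognition subunits; Prim2 was 0.79 higher with an adjusted p of 0.0866.

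Of 17 genes of nucleotide supply, 12 rose and 2 fell, with a median of 0.56. Dut, which keeps uracil out of DNA, changed most, at 1.43 and 1.58 in null ASC, against -0.82 and -0.78 in wild-type ASC (2.30 ± 0.09), followed by thymidine kinase Tk1 (1.34 ± 0.06). The pyrimidine enzyme Ctps fell by 0.37 and the folate enzyme Mthfd1 by 0.20; the Mthfd1 call was lost without null ASC array 1 or 2 or wild-type ASC array 2 (adjusted p = 0.076, 0.0718 and 0.0792). Of 22 genes that rebuild chromatin in S phase, 19 rose, 11 by at least 2-fold, and none fell, with a median of 1.04. These included lamin B1 (Lmnb1, 1.63 ± 0.07), the histone chaperones Asf1b (1.62 ± 0.08) and Nasp (1.49 ± 0.05) and the chromatin remodeller Hells (1.52 ± 0.06).

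Genes of mitosis also rose almost as a whole. Of 92 measured genes of the kinetochore, the spindle and chromosome condensation, 89 rose, 71 of them by at least 2-fold, and 2 fell, with a median of 1.40. Cdca8, the borealin subunit of the chromosomal passenger complex, stood at 4.02 and 3.97 in null ASC, against 2.22 and 2.31 in wild-type ASC (1.73 ± 0.06, adjusted p = 8.38e-06). Stmn1, a protein that destabilises microtubules, stood at 5.25 and 5.31 in null ASC, against 3.29 and 3.47 in wild-type ASC (1.90 ± 0.08). Top2a, the topoisomerase that untangles chromosomes, stood at 3.09 and 3.11 in null ASC, against 1.39 and 1.71 in wild-type ASC (1.55 ± 0.11). All 3 were apart on every array. The checkpoint kinases Ttk (1.82 ± 0.10) and Bub1b (1.69 ± 0.09), the kinesin Kif2c (1.74 ± 0.07) and the condensin subunit Ncaph (1.48 ± 0.07) moved alike. The exceptions were the kinetochore protein Zwint and the spindle protein Ckap2. Zwint fell by 0.24 on the probe used and was 0.20 higher over the mean of its probes (adjusted p = 0.0275). Ckap2 fell by 0.25. Both calls were lost without null ASC array 1 or 2 or wild-type ASC array 2 (adjusted p from 0.0567 to 0.0687 for Zwint and from 0.0774 to 0.108 for Ckap2).

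**Figure D3:**
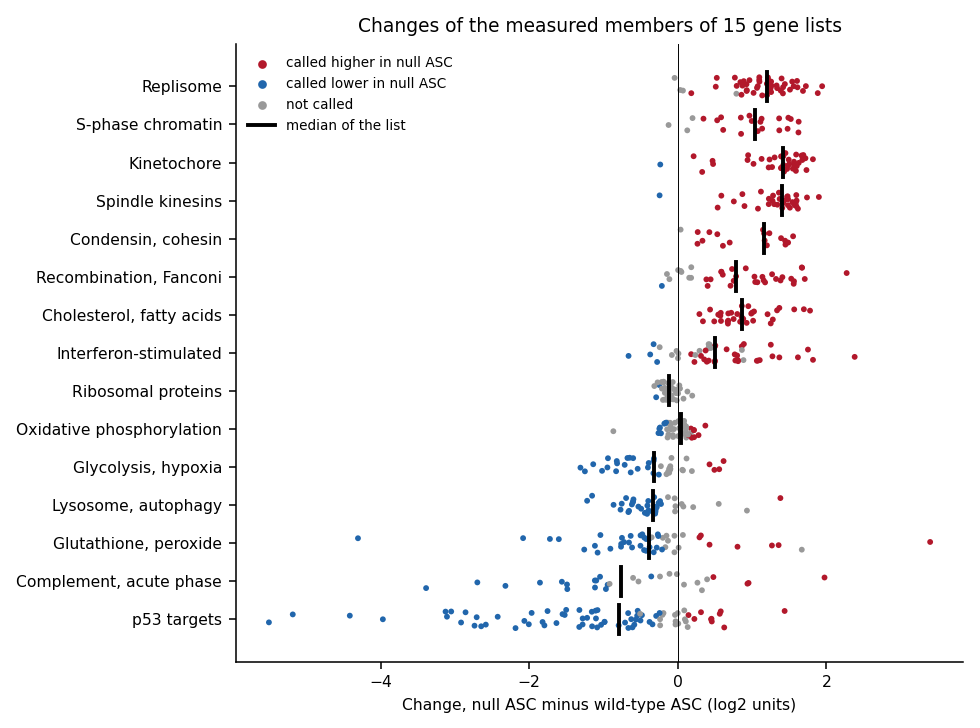
Change in null ASC minus wild-type ASC (log2) of each measured member of 15 gene lists, 1 point per gene, red where called higher, blue where called lower and grey where not called; black bars are list medians. Medians run from 1.42 in the kinetochore list to -0.80 for the p53 targets; points of genes that were dim in a group are fitted values and not bounds.

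The promoters of these genes differed in the motifs they held. Promoter sequences of 300 bases (250 before and 50 after the start) came from RefSeq, build GRCm38.p6. The E2F motif was searched as TTCCCGC or TTGGCGC and as TTCGCGC or TTGCCGC, the CHR element as TTTGAA or TTCGAA, and the CCAAT box as CCAAT, each on both strands; TTGGCGC and the reverse of TTCGCGC can overlap in 1 site. An E2F motif was present in 56.2% of 48 promoters of 39 matched replisome genes and in 56.7% of 30 promoters of recombination genes, against 14.8% of 15006 promoters of autosomal genes tested. A CHR element was present in 60% of 40 kinetochore promoters and 79.4% of 34 spindle kinesin promoters, against 14.2% of all. The lists did not divide cleanly, since condensin and cohesin genes held an E2F motif in 60% and a CHR element in 60% of 15 promoters, and S-phase chromatin genes in 48% and 40% of 25. CHR elements were in 20.8% of replisome promoters and E2F motifs in 17.5% of kinetochore promoters. CCAAT boxes were in 70% of kinetochore and 64.7% of kinesin promoters, against 37.1% of all. Promoters of p53 targets were near the share of all promoters for E2F (15.1%) and CHR (14%). These matches describe letters and were not tests of binding. The replisome, recombination, kinetochore and kinesin shares depended on the 50 bases after the start. Without them the E2F share was 33.3% for the replisome and 40% for recombination genes. The CHR share was then 30% for the kinetochore and 41.2% for kinesins. The condensin and cohesin shares were then 40% for E2F and 60% for CHR.

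The 150 bases before the start are shown for 3 E2F-type and 4 mitotic promoters of genes that rose. In the E2F group, capitals mark E2F motifs: Mcm6 at chr1:128359706-128359855 (minus strand), Prim1 at chr10:128015065-128015214 (plus strand) and E2f8 at chr7:48881597-48881746 (minus strand).
Mcm6 promoter: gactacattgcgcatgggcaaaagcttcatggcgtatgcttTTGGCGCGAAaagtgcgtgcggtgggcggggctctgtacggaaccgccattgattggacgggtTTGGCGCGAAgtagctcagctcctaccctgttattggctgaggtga
Prim1 promoter: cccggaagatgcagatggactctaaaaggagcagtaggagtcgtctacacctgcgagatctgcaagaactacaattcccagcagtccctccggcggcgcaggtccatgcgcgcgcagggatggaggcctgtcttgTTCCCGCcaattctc
E2f8 promoter: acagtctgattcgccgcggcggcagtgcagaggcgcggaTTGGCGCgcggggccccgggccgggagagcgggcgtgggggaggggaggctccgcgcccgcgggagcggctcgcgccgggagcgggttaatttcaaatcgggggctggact
In the mitotic group, capitals mark CCAAT boxes and CHR elements on either strand: Ccnb2 at chr9:70421555-70421704 (minus strand), Cdca8 at chr4:124936918-124937067 (minus strand), Cdc20 at chr4:118437344-118437493 (minus strand) and Top2a at chr11:99024190-99024339 (minus strand). Cdc20, the activator of the ligase that ends mitosis, changed by 1.48 ± 0.09.
Ccnb2 promoter: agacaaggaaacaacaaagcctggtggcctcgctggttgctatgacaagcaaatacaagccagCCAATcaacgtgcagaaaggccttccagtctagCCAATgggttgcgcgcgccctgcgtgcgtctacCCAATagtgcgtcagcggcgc
Cdca8 promoter: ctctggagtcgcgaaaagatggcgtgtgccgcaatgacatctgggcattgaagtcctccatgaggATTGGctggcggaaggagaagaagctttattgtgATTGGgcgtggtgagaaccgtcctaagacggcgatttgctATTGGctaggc
Cdc20 promoter: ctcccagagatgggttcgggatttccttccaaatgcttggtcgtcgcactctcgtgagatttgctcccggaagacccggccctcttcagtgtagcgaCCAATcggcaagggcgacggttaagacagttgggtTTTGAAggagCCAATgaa
Top2a promoter: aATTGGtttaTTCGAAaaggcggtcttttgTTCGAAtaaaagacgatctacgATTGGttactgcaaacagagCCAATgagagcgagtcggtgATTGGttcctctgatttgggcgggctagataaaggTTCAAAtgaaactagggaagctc
The Mcm6 window holds the same stretch of overlapping E2F letters at 2 places, and the windows of Ccnb2 and Cdca8 each hold 3 CCAAT boxes with no CHR element.

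**Figure D4:**
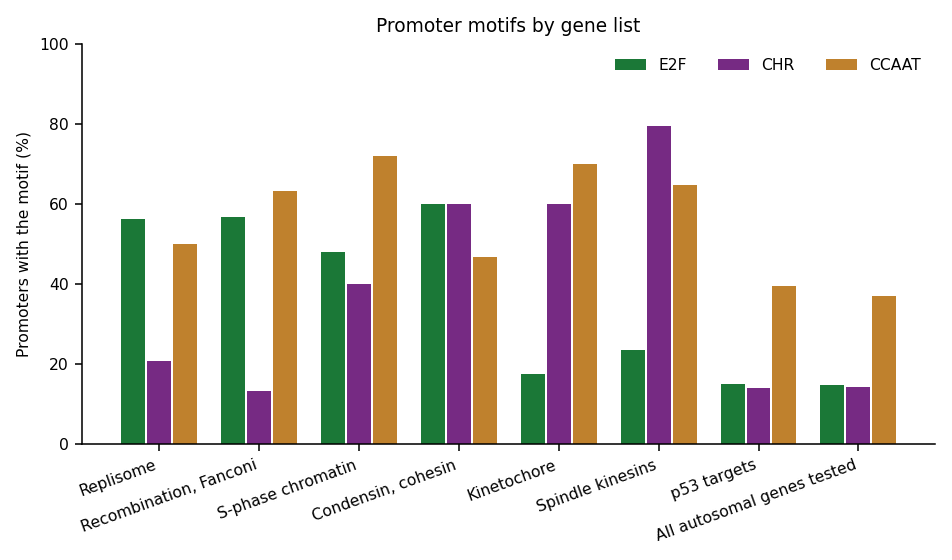
Share of promoters (%, 300 bases each) that hold an E2F motif, a CHR element or a CCAAT box, for 7 gene lists and for all autosomal genes tested. The E2F bar is highest in the condensin and cohesin (60%), recombination (56.7%) and replisome (56.2%) lists and the CHR bar in the spindle kinesins (79.4%), against 14.8% and 14.2% of all promoters.

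DNA repair split into branches. Of 37 genes of homologous recombination and the Fanconi pathway, 28 rose and 1 fell, 17 of the rises by at least 2-fold, with a median of 0.78. The recombination helicase Rad54l stood at -0.36 and -0.39 in null ASC, against -2.15 and -2.02 in wild-type ASC (1.71 ± 0.06), and Rad51ap1 (1.67 ± 0.06), the exonuclease Exo1 (1.67 ± 0.23) and Fancd2 (1.56 ± 0.12) rose too. Brca1 was at least 1.82-fold higher, with a mean of -4.69 in null ASC and -6.96, below background, in wild-type ASC (adjusted p = 0.00411). Of 42 damage checkpoint, mismatch and excision repair genes, 21 rose and 9 fell, with a median of 0.23. The polymerase Polq (1.72 ± 0.08) and the glycosylase Neil3 (1.50 ± 0.05) led the rises. The falls were led by the lesion-bypass polymerase Polk (-1.75 ± 0.09) and the excision nucleases Ercc5 (-1.52 ± 0.06) and Ercc4 (-0.69 ± 0.07), with the damage sensor Xpc at -0.63 ± 0.09.

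The p53 targets fell in most cases but not all. Of 79 measured genes in lists of p53 targets, 55 fell, 37 of them by at least 2-fold, and 10 rose, with a median of -0.80; with only the 4 ASC arrays 6 rose. Among genes of arrest and feedback, 14 of 21 fell and 2 rose. Mdm2, the ubiquitin ligase of p53, stood at 4.36 and 4.32 in null ASC, against 6.39 and 6.42 in wild-type ASC (-2.07 ± 0.05, adjusted p = 3.70e-06). Cyclin G (Ccng1) stood at 2.12 and 2.06 in null ASC, against 4.95 and 5.06 in wild-type ASC (-2.92 ± 0.07). Both pairs of arrays were well apart, as for Cdkn1a above. The phosphatase Ptprv (-3.13 ± 0.10), the antiproliferative factor Btg2 (-2.71 ± 0.09) and the RNA-binding protein Zmat3 (-2.65 ± 0.05) fell by more than 2 log2 units. Gadd45a stood at 2.08 and 2.06 in null ASC and at 2.02 and 1.93 in wild-type ASC and was not called, nor was Sesn1 (0.09). Rprm, an arrest gene, went against the list at 3.38 and 3.50 in null ASC and 2.02 and 1.98 in wild-type ASC (1.44 ± 0.22), and in marrow cells it changed by -5.65.

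Among p53 targets of cell death, 16 of 20 fell and 3 were called higher, of which Casp1 was not well above background in either group. Pmaip1 (Noxa) stood at -0.57 and -0.42 in null ASC, against 2.53 and 2.58 in wild-type ASC (-3.05 ± 0.09), and Trp53inp1, a stress protein of autophagy, at 0.64 and 0.81 in null ASC, against 3.84 and 3.82 in wild-type ASC (-3.11 ± 0.06). The death receptor Fas (-1.80 ± 0.06), the nuclease Aen (-1.82 ± 0.05) and Trp53i11 (-1.97 ± 0.05) also fell. The BCL2 relatives Bbc3 (Puma, -1.33 ± 0.07) and Bax (-1.28 ± 0.06) changed by less, though both were apart on all arrays. Dram1 (0.62 ± 0.07), a lysosomal protein of autophagy, and Tnfaip8 (0.45 ± 0.09) rose, the Tnfaip8 call being lost with only the 4 ASC arrays (adjusted p = 0.0703). Among 32 genes of the BCL2 family and the inhibitors of apoptosis, which overlap these lists, 9 rose and 12 fell; the survival gene Bcl2l1 changed by -1.29 ± 0.06 and Birc5, which also acts in mitosis, by 1.50 ± 0.07.

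Of 38 p53 targets of metabolism, repair and other roles, 25 fell and 5 rose. The epoxide hydrolase Ephx1 stood at 4.96 and 4.88 in null ASC, against 7.72 and 7.84 in wild-type ASC (-2.86 ± 0.07), a large step for a gene this bright. Psrc1 (-2.74 ± 0.06), a spindle protein, Dcxr (-2.59 ± 0.09), a sugar reductase, Phlda3 (-2.42 ± 0.06), an inhibitor of Akt, and the thiamine transporter Slc19a2 (-2.01 ± 0.09) fell. By bounds, Inka2 was at least 10.8-fold, the channel-like protein Ano3 5.33-fold and Tnfrsf18 3.8-fold lower. Sp110 (0.58 ± 0.05), Cd82 (0.56 ± 0.05), Hspa4l (0.45 ± 0.06) and Ddb2 (0.46 ± 0.08) rose.

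**Figure D5:**
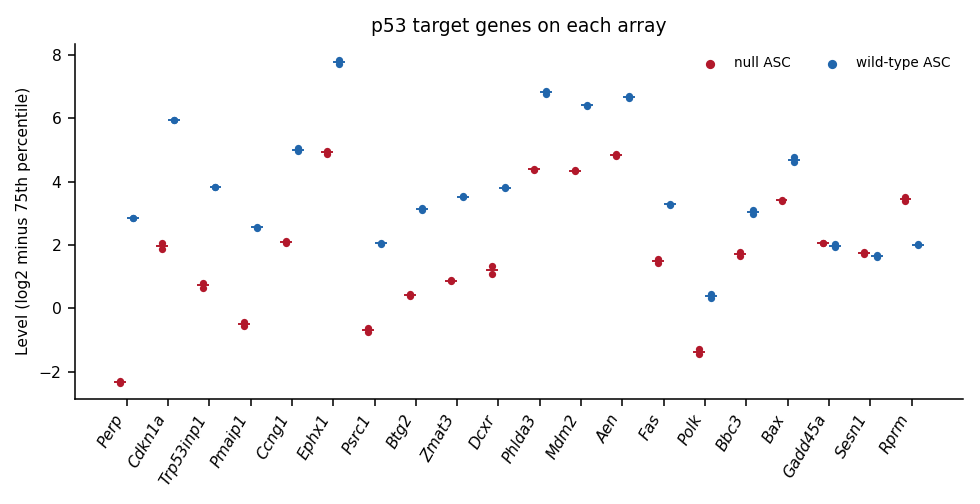
Level (log2 minus the 75th percentile) of 20 p53 target genes on each array, null ASC in red on the left of each gene and wild-type ASC in blue on the right, with lines at the mean of 2. Every gene from Perp to Bax is lower in both null arrays, Gadd45a and Sesn1 were not called, and Rprm is higher in both null arrays.

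Every measured gene of cholesterol and fatty acid synthesis rose. All 33 were called higher, 11 of them by at least 2-fold, with a median of 0.86 and a lowest change of 0.29 for the malic enzyme Me1. Scd1, which makes monounsaturated fatty acids, stood at 3.26 and 3.29 in null ASC, against 1.57 and 1.43 in wild-type ASC (1.78 ± 0.07). Pmvk, a kinase of the mevalonate pathway, stood at 4.64 and 4.65 in null ASC, against 2.96 and 2.93 in wild-type ASC (1.70 ± 0.04, adjusted p = 4.59e-06). The sterol-forming enzymes Lss (1.57 ± 0.10), Idi1 (1.37 ± 0.06), Fdps (1.34 ± 0.06) and Cyp51 (1.28 ± 0.06) changed by similar amounts. In marrow cells 31 of the 33 also rose, with a median of 0.81.

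Enzymes of detoxification were mostly lower. Of 47 genes of glutathione and peroxide detoxification, 30 fell and 7 rose, with a median of -0.39. Gsto1, an omega-class glutathione transferase, stood at 5.64 and 5.49 in null ASC, against 7.64 and 7.65 in wild-type ASC (-2.08 ± 0.09), and Gsto2 (-1.60 ± 0.11), Gstm6 (-1.72 ± 0.11) and Gstm5 (-1.26 ± 0.05) fell with it. Against this, the cystine transporter Slc7a11, which supplies glutathione synthesis and is repressed by p53, was at least 7.11-fold higher, with means of -2.72 in null ASC and -6.12, below background, in wild-type ASC (adjusted p = 0.00139). Of 61 esterases, sulfotransferases, cytochromes and other such enzymes, 30 fell, 14 by at least 2-fold, and 16 rose. Cyp1b1 (-1.77 ± 0.20) and the glucuronosyl transferase Ugt1a6a (-1.68 ± 0.27) fell, while the folate enzyme Aldh1l2 (2.35 ± 0.06) and the alcohol dehydrogenase Adh1 (1.49 ± 0.08) rose.

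Lysosome genes and a joint list of glycolysis and hypoxia genes mostly shifted down by small amounts. Of 40 genes of the lysosome and autophagy, 30 fell and 1 rose, with a median of -0.33 and only 2 falls of at least 2-fold. The protease Ctsd, also a p53 target, stood at 6.10 and 6.15 in null ASC, against 7.20 and 7.35 in wild-type ASC (-1.15 ± 0.06), and falls were also found for Ctsf (-1.22 ± 0.06) and Hexa (-0.77 ± 0.07). Ctsh, another lysosomal protease, rose to 5.17 and 5.28 in null ASC, against 3.85 and 3.83 in wild-type ASC (1.38 ± 0.05). Of 39 glycolysis and hypoxia genes, 21 fell and 4 rose, with a median of -0.32. The falls were led by the oxygen sensor Egln3 (-1.31 ± 0.14), Ankrd37 (-1.25 ± 0.07), the mTOR inhibitor Ddit4 (-1.14 ± 0.05) and the mitophagy protein Bnip3 (-1.02 ± 0.07). The rises were the glycolytic enzyme Aldoc, the glycolysis regulators Pfkfb3 and Pfkfb4 and the lactate transporter Slc16a3. The glycolytic enzymes Gapdh, Eno1 and Tpi1 were not called. Of 47 oxidative phosphorylation genes 9 rose (19.1%) and 7 fell (14.9%), with none changed by 2-fold and with 0 to 19 rising under the alternatives. Of 46 ribosomal protein genes none rose and 2 fell (0 to 8 under the alternatives), and of 34 genes of ribosome assembly 18 rose and 3 fell, none by 2-fold, the largest being Nop56 (0.72 ± 0.05).

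Markers of other cell types moved beside these groups. The macrophage list had 5 of 8 markers well above background on both null ASC arrays, against 7 of 8 on both wild-type ASC arrays. Its summed level, in multiples of the 75th percentile, was 15.2 and 13.9 in null ASC, against 30.1 and 25.3 in wild-type ASC. That sum was mostly Itgam, the brightest of the 8, at 3.56 and 3.41 in null ASC and 4.65 and 4.36 in wild-type ASC. Lyz2 (-2.99 ± 0.29, with 1 null array above background), Itgam (-1.02 ± 0.12) and Cd68 (-0.95 ± 0.09) fell, while Csf1r, Adgre1 and Fcer1g were not called. Ptprc was not called either (-0.002), although it was well above background only in wild-type ASC. Tyrobp was above background on none of the 4 arrays. In a wider list of 25 macrophage and myeloid genes 8 fell and 3 rose, with a median of -0.07. The rises were Coro1a (0.74 ± 0.10), the invariant chain Cd74 (1.84 ± 0.26), which acts in antigen presentation, and the Fc receptor Fcgr3, which was above background on 1 null array and on no wild-type array and was not called with normexp background correction (adjusted p = 0.367). All 4 mesothelial markers were above background in both groups, with a summed level of 6.17 and 7.59 in null ASC, against 17.7 and 15.8 in wild-type ASC. In wild-type ASC that sum was mostly Msln, at 3.90 and 3.69. Msln (-2.60 ± 0.09) and Upk3b (-1.74 ± 0.18) fell, while Krt19 (1.48 ± 0.16) and Wt1 (1.50 ± 0.40) rose, the Wt1 call being lost without any of the 4 arrays (change from 1.29 to 1.71, adjusted p from 0.0517 to 0.109). In such bulk cultures fewer cells of a type and less RNA per cell cannot be told apart, and the part of these cells in the lysosomal, complement and receptor results was not tested.

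Complement and acute-phase genes were lower in many cases. Of 28 measured, 14 fell, 11 by at least 2-fold, and 4 rose, with a median of -0.76. With normexp background correction the median was -0.31 and 2 rose; among the 18 genes bright on all 10 arrays 1 rose. Saa3, a serum amyloid protein made by stromal cells, stood at 2.45 and 2.76 in null ASC, against 6.10 and 5.89 in wild-type ASC (-3.39 ± 0.16). C3, the central complement protein, stood at 5.64 and 5.87 in null ASC, against 8.12 and 8.02 in wild-type ASC (-2.32 ± 0.10). The groups were more than 2 log2 units apart in both. The copper carrier Cp (-2.70 ± 0.09), haptoglobin (Hp, -1.86 ± 0.15), Saa1 (-1.56 ± 0.12) and the protease C1s1 (-1.49 ± 0.05) fell too, while Cd55, which protects cells from complement, rose by 1.97.

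Interferon-stimulated genes were higher. Of 47 measured, 29 rose, 10 by at least 2-fold, and 4 fell, with a median of 0.50; 2 fell with only the 4 ASC arrays, with no filter, and without either null ASC array or wild-type ASC array 2. Zbp1, a sensor of foreign nucleic acid, stood at 2.08 and 2.20 in null ASC, against 0.21 and 0.44 in wild-type ASC (1.82 ± 0.18). Oasl1 stood at 1.85 and 1.80 in null ASC, against -0.56 and -0.56 in wild-type ASC, a change of 2.38 ± 0.62 (adjusted p = 0.0218). Its ASC duplicates lay within 0.1 log2 units, while the wild-type marrow arrays that share the SE stood at -7.17 and -5.01. The antiviral gene Ifi44 (1.75 ± 0.30) and the RNA helicase Dhx58 (1.27 ± 0.14) rose, as did Oas3 (1.62 ± 0.36) and Oas2 (1.37 ± 0.38), sensors of double-stranded RNA. The calls of Oasl1 and Oas2 were lost without any of the 4 arrays (adjusted p up to 0.0835 and 0.115), and that of Oas3 without array 1 of null ASC or of wild-type ASC (adjusted p = 0.0674 and 0.0582). Irgm1 (-0.66 ± 0.07) and Ifitm2 (-0.37 ± 0.06) went the other way. Of 11 guanylate-binding proteins 7 rose and none fell, and of 26 genes of MHC class I and antigen processing 12 rose and 5 fell, with the immunoproteasome subunits Psmb8 (1.37 ± 0.06) and Psmb9 (1.09 ± 0.06) ahead. The protocol gives a virus for the null cultures, and its part in these genes was not tested.

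Chemokines moved in both directions. Of 32 measured, 9 rose (28.1%) and 6 fell (18.8%), against 20.3% and 21.4% of all autosomal genes. All 9 rises and 4 of the falls were at least 2-fold. Over all autosomal genes 4.96% rose and 4.19% fell by at least 2-fold. In neither group were 8 of the 32 well above background. Cxcl12, the stromal factor that retains blood stem cells, stood at 5.66 and 5.64 in null ASC, against 4.22 and 4.42 in wild-type ASC (1.33 ± 0.08), Ccl8 rose by 1.95 and Cxcl10 by 1.67. Ackr3, which scavenges Cxcl12, fell by 2.03 and the neutrophil attractant Cxcl1 by 1.45, and Ccl6 was at least 3.59-fold lower. Among 47 interleukins and TNF family members, 13 rose and 13 fell (27.7% each), 7 and 2 of them by at least 2-fold. Il6 stood at -0.94 and -1.07 in null ASC, against 0.87 and 0.89 in wild-type ASC (-1.88 ± 0.29), and the receptor Lifr (1.59 ± 0.09) and the alarmin Il33 (1.63 ± 0.07) rose.

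Retinoic acid genes held some of the largest changes, although the list as a whole split evenly, with 7 of 22 higher and 7 lower; 3 were lower with only the 4 ASC arrays and 4 without wild-type ASC array 1. Aldh1a2, which makes retinoic acid, stood at 2.43 and 2.52 in null ASC, against -2.11 and -2.08 in wild-type ASC (4.57 ± 0.06, adjusted p = 1.71e-06). Aldh1a3, its relative, was at least 5.38-fold higher, with means of -3.13 in null ASC and -7.71 in wild-type ASC. Another such enzyme, Aldh1a1, was bright in both groups and lower in null ASC, at 7.13 and 7.12, against 8.37 and 8.43 in wild-type ASC (-1.27 ± 0.23). The retinol carrier Rbp4 (3.31 ± 0.12) and the receptor Rarb (1.03 ± 0.18) rose, and the retinal reductase Dhrs3 (-1.61 ± 0.06) fell.

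Modulators of Wnt signalling, not all of them secreted, also moved apart. Of 21 measured, 9 rose, 7 by at least 2-fold, and 6 fell (3 with only the 4 ASC arrays). Beside Sfrp4, Sfrp2 and Rspo2, the Wnt protease Trabd2b (2.05 ± 0.10) and the matrix protein Cthrc1 (1.59 ± 0.14) rose, while Sfrp1 (-0.53 ± 0.09) and the intracellular antagonist Dact1 (-1.58 ± 0.12) fell. Of 38 Wnt ligands, receptors and targets, 9 rose (23.7%) and 10 fell (26.3%), near the 20.3% and 21.4% of all autosomal genes. At least 2-fold were 6 of these rises and 2 of the falls. Wnt4 (1.90 ± 0.27) was among the rises and Wnt9a (-1.40 ± 0.08) among the falls. The Wnt target gene Axin2 was not well above background in either group.

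Bone morphogenetic protein genes showed no common direction, with 11 of 47 in the BMP and TGF-beta list higher and 11 lower (23.4% each), near the 20.3% and 21.4% of all autosomal genes; 5 were higher with only the 4 ASC arrays and 7 without null ASC array 2. Bmp4 stood at 2.22 and 2.39 in null ASC, against -0.16 and -0.41 in wild-type ASC (2.59 ± 0.10), and its relative Gdf10 rose by 2.54. Bmp2 was at least 2.71-fold higher. In the BMP and TGF-beta list 6 of the rises and 2 of the falls were at least 2-fold. The BMP antagonist Grem1 stood at 2.67 and 2.55 in null ASC, against 3.98 and 4.18 in wild-type ASC (-1.48 ± 0.09), and the receptor Acvrl1 changed by -2.10 ± 0.12. In the Hedgehog list 4 of 12 rose and 1 fell, with Gli1, a target of the pathway, at least 4.28-fold higher and the co-receptor Gas1 up by 1.24. In the Notch list 8 of 18 fell and 2 rose, led by the receptor Notch3, which stood at -0.87 and -1.22 in null ASC, against 1.57 and 1.58 in wild-type ASC (-2.62 ± 0.12).

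Lineage genes gave no single direction for bone. Of 20 osteoblast transcription factors 7 rose and 3 fell, with Twist2 (1.28 ± 0.06) and Snai2 (0.81 ± 0.05) among the rises, and the master regulator Runx2 stood at -2.72 and -2.32 in null ASC and -2.21 and -2.45 in wild-type ASC and was not called (adjusted p = 0.387). Of 30 bone matrix and mineralization genes 9 rose (30%) and 6 fell (20%), against 20.3% and 21.4% of all autosomal genes. Periostin (Postn) stood at 3.73 and 3.61 in null ASC, against 1.46 and 1.50 in wild-type ASC (2.19 ± 0.06), and Spp1, osteopontin, rose by 1.41, a call lost with only the 4 ASC arrays (adjusted p = 0.057). The osteocalcin genes Bglap2 (-1.73 ± 0.14) and Bglap3 (-1.50 ± 0.14) fell; these near-identical copies may share probe signal. Type I collagen (Col1a1) stood at 7.17 and 7.21 in null ASC and 7.25 and 7.27 in wild-type ASC and was not called. Tnfsf11, the osteoclast factor RANKL, was at least 1.54-fold higher.

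Among 31 fat cell genes 12 rose and 5 fell, and these include lipid synthesis genes counted above. The adipocyte regulator Cebpa was at least 5.24-fold higher, with means of -2.92 in null ASC and -5.68, below background, in wild-type ASC (adjusted p = 0.000303). The fatty acid binding protein Fabp4 rose by 0.67. Cebpd, an early adipogenic factor, stood at 3.19 and 3.20 in null ASC, against 4.96 and 4.92 in wild-type ASC (-1.75 ± 0.06). Of 22 cartilage genes 8 rose and 4 fell, counting genes below background; 4 rose without null ASC array 2 or wild-type ASC array 1. The cartilage regulator Sox9 stood at -0.18 and -0.04 in null ASC, against -2.74 and -2.62 in wild-type ASC (2.57 ± 0.07), while Col2a1, the main cartilage collagen, was not well above background in either group.

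Surface markers of these cells also shifted. Cd34, a marker of fresh fat stroma that is usually lost in culture, stood at 3.004 and 2.77 in null ASC, against -0.28 and -0.25 in wild-type ASC (3.15 ± 0.09, adjusted p = 4.96e-06). The aminopeptidase Anpep (CD13) stood at 1.44 and 1.36 in null ASC, against -0.76 and -0.79 in wild-type ASC (2.18 ± 0.05). Both groups of arrays were well apart. The tetraspanin Cd81 (-0.79 ± 0.05) fell. Among the 10 fixed markers of mesenchymal stem cells, the endoglin gene Eng (-0.74 ± 0.07), Nt5e (-0.75 ± 0.19), Vcam1 (-0.64 ± 0.06), Thy1 (-0.60 ± 0.08) and Cd200 (-0.35 ± 0.11) fell. Pdgfra (0.69 ± 0.07) and Ly6a (0.43 ± 0.09) rose, and Cd44, Itgb1 and Pdgfrb were not called. In a wider list of 32 surface and niche genes, which holds Cd34, Anpep and Cd81, 12 rose and 10 fell.

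Extracellular matrix genes were divided within each family. Of 36 collagens and collagen enzymes 14 rose and 11 fell, with Col14a1 (1.60 ± 0.18) and Col22a1 (1.57 ± 0.10) higher, Col27a1 (-1.51 ± 0.11) and Col8a1 (-1.49 ± 0.10) lower, and Col15a1 at least 6.61-fold higher. In the elastic fibre list 8 of 23 rose and 13 fell. Mfap4 stood at 3.28 and 3.16 in null ASC, against 0.70 and 0.74 in wild-type ASC (2.50 ± 0.12), and Emilin2 at 6.01 and 6.01 in null ASC, against 3.58 and 3.65 in wild-type ASC (2.40 ± 0.08). The fibrillins Fbn1 (1.33 ± 0.05) and Fbn2 (1.70 ± 0.10) rose, while the fibulin relatives Efemp1 (-1.80 ± 0.11) and Fbln5 (-1.37 ± 0.06) fell. Tgfbi, an adhesion protein induced by TGF-beta, stood at 2.98 and 2.95 in null ASC, against -0.33 and -0.53 in wild-type ASC (3.40 ± 0.07), and tenascin-W (Tnn) was at least 3.71-fold higher. The basement membrane genes Nid2 (-1.33 ± 0.05) and Lama5 (-1.40 ± 0.19) fell. Of 45 proteases and inhibitors 11 rose (24.4%) and 17 fell (37.8%), against 20.3% and 21.4% of all autosomal genes. Mmp9 (2.05 ± 0.20) and Htra1 (1.47 ± 0.07) were higher and Adamts5 (-1.87 ± 0.14) and the bright inhibitor Timp3 (-1.56 ± 0.08) lower.

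Growth factor genes moved in both directions. Of 43 FGF, PDGF, EGF and VEGF family genes 17 fell (39.5%) and 10 rose (23.3%), against 21.4% and 20.3% of all autosomal genes. The share of rises was thus near that of all genes. The VEGF receptor Flt1 stood at -0.64 and -0.76 in null ASC, against 2.10 and 2.12 in wild-type ASC (-2.81 ± 0.11), and the ligands Fgf18 (-1.85 ± 0.11), Fgf10 (-1.70 ± 0.08) and Pdgfa (-1.55 ± 0.06) fell. The neurotrophin receptor Ngfr stood at 6.30 and 6.29 in null ASC, against 3.83 and 3.65 in wild-type ASC (2.56 ± 0.18). In the insulin-like growth factor axis 6 of 19 rose and 7 fell (4 with only the 4 ASC arrays), and Igfbp3, described as a p53 target in human cells, rose to 1.23 and 1.34 in null ASC, against -1.21 and -1.29 in wild-type ASC (2.54 ± 0.07). Among 39 receptors for purines, angiotensin and lipids, 9 rose (23.1%), again near the share of all genes, and 14 fell (35.9%). At least 2-fold were 6 of these rises and 4 of the falls. The ADP receptor P2ry1 was at least 7.41-fold higher, the oxytocin receptor Oxtr rose by 2.83, and the ATP receptor P2ry2 (-2.73 ± 0.10) fell with P2ry6.

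Genes of cell position moved in both directions. Of 35 Hox genes 4 rose (11.4%) and 8 fell (22.9%), no more than about the share of all genes, with Hoxa9 (1.07 ± 0.10) highest and Hoxc13 (-1.87 ± 0.24) lowest. Of 55 limb and positional factors 20 rose and 13 fell, with Prrx2 at 1.53 and 1.55 in null ASC, against -0.60 and -0.77 in wild-type ASC (2.22 ± 0.07), followed by Lhx2 (2.21 ± 0.18) and Gata3 (1.56 ± 0.16), while Osr1 (-1.28 ± 0.09) and Nr2f1 (-1.06 ± 0.05) fell. In a list of AP-1, Myc and early response genes 18 of 30 fell (60%) and 6 rose (20%), against 21.4% and 20.3% of all autosomal genes. At least 2-fold were 3 of the falls and 2 of the rises. Fos (-1.14 ± 0.09) and Junb (-0.996 ± 0.05) were among the falls. Mxd3, a Myc antagonist of S phase, rose most (2.03 ± 0.11), followed by Atf3, Fosl1, Nr4a2, Egr2 and Dusp4. Jun, Jund and Nr4a1 were not called.

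Many of these changes differed from those between null and wild-type marrow cells, measured on the same slide. The change in ASC minus the change in marrow cells passed for 6843 autosomal genes (31.8%), with 3505 higher (16.3%) and 3338 lower (15.5%) in ASC. In the mitosis lists the change was larger in ASC for 79 of 92 genes; 89 of the 92 rose in ASC, with a median of 1.40, and 67 in marrow cells, with a median of 0.38. In the replication and chromatin lists it was larger in ASC for 66 of 88, with medians of 1.04 in ASC and 0.48 in marrow cells. Among the p53 targets it was lower in ASC for 44 of 79 genes, with medians of -0.80 in ASC and -0.40 in marrow cells, and among lysosomal genes for 24 of 40, with medians of -0.33 in ASC and 0.09 in marrow cells. For Rb1 and Trp53 themselves the difference was -1.93 and -4.10 (log2), a larger fall in ASC. The part of this in the other differences was not tested.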

How the data were processed

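RNA from 10 cultures was hybridised to single-colour (Cy3) Agilent mouse arrays. The deposited scanner files hold the processed intensity of each spot, made by the authors with Feature Extraction (version 10.7.3.1 by the file headers), and flags for spots well above background. The deposited table of log2 values, normalized by the authors in a way not given in the sources used here, served as an alternative.

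From the intensity, log2 minus the 75th percentile of each array's non-control spots was computed, spots of a probe were averaged, and 1 probe per gene was kept, that with the highest mean level. A gene was tested if some group had the probe well above background on both of its arrays. Probes were named through RefSeq (GRCm38.p6) by accession where possible (27214 of 55681 probes) or else by symbol, synonym or the name in the file (24246). All 10 arrays were fitted in limma 3.58.1 (R 4.3.3) with 5 groups and moderated variances; p-values were Benjamini-Hochberg adjusted over 22596 genes, at a threshold of 0.05. With 2 arrays a group, their number limits the precision. Replicate numbers only name the cultures. On simulated data the fit found 38% of 50 genes changed by 0.5 on the log2 scale. It found 70% of 50 changed by 1 and 88% of 50 changed by 2, with 11 false calls among unchanged genes. A far smaller share of genes was changed there than the 41.6% called here, which alters the adjusted p. These rates therefore do not give the recovery in this comparison. The 8 non-tumor arrays lay on 1 slide.

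The comparison and its gene lists were chosen with earlier results of these data known. Named genes were up to 6 called members per list and direction with the largest change or bound, up to 3 not called, and those against a list's majority; outside this rule, C1s1, Cdc20, Me1, Prim2, Slc19a2, Tnfrsf18 and Ugt1a6a were chosen after their values were seen. Alternatives were quantile and normexp normalization, the authors' table, no filter, the probe mean, ASC arrays alone, a replicate block and leaving out each array. Genes on X or Y (868) or unplaced (225) were not analysed here, and some genes that the rule names are not reported here.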

Additional observations from a re-analysis of the deposited data

Results flagged for a closer look

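The genes compared were 29 of those with the largest changes among genes detected on at least 1 array of each ASC group. In limma, 28 of the 29 differed in their change between fat and marrow cells by the test of the difference itself (adjusted p under 0.05). The share over all autosomal genes was 31.8%. The exception among the 29 was Robo3, at -4.38 in marrow cells. Values below are the change in ASC minus the change in marrow cells on the log2 scale. Among the increases the difference was 3.81 for Lrrc17, 5.54 for Sfrp4, 8.11 for Sfrp2, 4.27 for Ccl5, 3.98 for Vgll2, 4.49 for Arg1, 3.98 for Atp1b2, 6.57 for Aldh1a2, 1.81 for Enpp2, 2.90 for Aspn, 5.41 for Rspo2, 0.82 for Fndc1, 6.20 for Bves, 3.86 for Syt1 and 2.34 for Prune2. Among the decreases it was -4.37 for Ces2e, -4.10 for Trp53, -4.01 for P2ry6, -3.36 for Perp, -3.27 for Hoatz, -4.04 for Anxa8, -1.79 for Gsta3, -1.70 for Celf5, -5.08 for Cyp2f2, -3.96 for Slc22a18, -2.62 for Cdkn1a, -1.70 for Ass1 and -3.36 for Ces2c. In marrow cells 17 of the 29 were called in the same direction, 7 were not called and 5 were called in the opposite one. The last were Sfrp2 (-3.11 in marrow cells), Aldh1a2, Rspo2 (-1.21), Bves (-2.41) and Cyp2f2 (1.00). The genes were picked for the size of their change in ASC, which tilts the difference toward ASC. Null and wild-type cultures lay in different positions of the slide in both tissues.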

How the results depend on the processing

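The call of 8954 genes stayed between 6455 (only the 4 ASC arrays) and 9428 (the authors' table) under every alternative tried, and between 7097 and 7756 without any single array. The count of genes called at 2-fold, 1969, was 999 with normexp background correction (529 higher, 470 lower) and 1232 over genes well above background on all 10 arrays (670 higher, 562 lower); without any single array it lay between 1888 and 1987. Normexp left a median of 92.8% of the change of 275 named genes that were called. With the replicate block 8573 genes were called, 1936 at 2-fold, and no named gene changed its call; the duplicates share only a number, since the same-numbered ASC arrays deviated together at r = 0.116 and other pairs of groups at -0.122 to 0.111. With only the 4 ASC arrays 8 named genes lost their call, among them Rbl2, Spp1 and Tnfaip8. Of 68 lists and joined lists, 44 had a count that moved by more than 1.5 times under some alternative, in 17 of them the larger of its counts of rises and falls. In 12 lists (cell cycle, recombination, p53 targets, lipid synthesis, lysosome, detoxification, complement and interferon) the larger count never moved so far, while the smaller did in 8. The medians of complement and esterase genes were -0.309 and -0.219 with normexp. The chromosome 19 median was 0.0479 in the authors' table. Using only the bases before the start, the motif shares were 33.3% (E2F, replisome), 30% (CHR, kinetochore), 41.2% (CHR, kinesins), and 12.2%, 12.5% and 34.6% (E2F, CHR and CCAAT, all promoters). Of 297 named genes, Zwint reversed (0.196 over the mean of its probes) and 10 lost their call without an array, with their direction kept; where this leaves 1 array in a group, that array is assumed to vary like the others. Background limits what is known of low genes: 913 tested genes were above it in neither ASC group.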

Other observations

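Some gene groups outside the comparisons above also held large changes. Of 54 guidance genes of the semaphorin, ephrin, Slit and netrin families 11 rose (20.4%) and 17 fell (31.5%), against 20.3% and 21.4% of all autosomal genes. The ephrin receptor Epha3 stood at -1.14 and -0.98 in null ASC, against -3.21 and -3.35 in wild-type ASC (2.22 ± 0.50). Its relative Epha4 stood at -5.34 and -4.13 in null ASC, with 1 null array above background, against -2.16 and -2.17 in wild-type ASC (-2.57 ± 0.48). The Epha3 call was lost without array 2 of null ASC or of wild-type ASC (adjusted p = 0.0588 and 0.0591). Of 22 imprinted growth genes 7 rose and 7 fell (31.8% each). The maternally silenced genes Peg10 (1.71 ± 0.22) and Mest (1.63 ± 0.16) rose, while Peg3 (-1.55 ± 0.43) and Snrpn (-1.15 ± 0.08), silenced on the same parental copy, fell; the Peg3 call was lost without any of the 4 arrays (adjusted p from 0.0809 to 0.109). In the unfolded protein and heat shock list 13 of 31 rose (8 with only the 4 ASC arrays) and 6 fell, with the stress kinase inhibitor Trib3 (1.51 ± 0.07) and asparagine synthetase Asns (1.01 ± 0.06) higher and the small heat shock protein Hspb1 (-0.90 ± 0.07) lower. Of 22 smooth muscle genes 7 rose (31.8%) and 5 fell (22.7%), with the myosin Myh11 among the falls (-1.36 ± 0.15).

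In the prostaglandin list 5 of 22 rose (22.7%) and 8 fell (36.4%), against 20.3% and 21.4% of all autosomal genes. With only the 4 ASC arrays 5 fell. The inducible synthase Ptgs2 stood at 0.76 and 0.70 in null ASC, against 2.07 and 2.14 in wild-type ASC (-1.37 ± 0.07). Several genes had probes that disagree: 6537 autosomal genes had more than 1 probe, and of 548 such genes called at 2-fold 43 had probes with changes of both signs. No explanation of these values was tested.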
